A study of Homo sapiens with 11 samples.

Results

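The 42 genes described here encode the autophagy machinery and its cargo receptors, chosen by symbol from a list and looked up in each of 2 abundance tables that together name 15148 genes. The knockdown table of 14458 genes held 41 of them, of which 39 had values high enough to test. The overexpression table of 11062 genes held 39, of which 38 were tested. MAP1LC3A was not among the rows of either table, and ULK2 and ATG101 were not among the overexpression rows. They were grouped by role into the initiation kinase complex (6 genes), the class III PI3-kinase complex and its regulators (6), membrane supply, lipid transfer and PI3P readers (6), lipid conjugation (11), the LC3 and GABARAP family (6), cargo receptors (5), and tethering and fusion (2).

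All 11 RNA-seq libraries came from ARP1, a human cell line of multiple myeloma, the cancer of antibody-secreting plasma cells, with an IgA kappa phenotype. Scramble control (n = 3) was compared with PHF19 shRNA (n = 3), and cells carrying the empty PCDH vector (n = 3, numbered 3 to 5) with cells overexpressing PHF19 from the same lentiviral vector (n = 2), the virus having been packaged in HEK293T cells. PHF19 is an accessory subunit of the Polycomb repressive complex PRC2, and the series title concerns its part in growth and drug resistance of myeloma. Overexpressing cells were sorted before RNA was taken, and nothing says whether the empty vector cells were sorted too. How the shRNA was delivered, whether its 3 libraries carry 1 hairpin, and whether replicates were separate cultures is also not given in the sources used here, so p-values measure the spread between these libraries, which may be technical. The genotype and treatment labels of the scramble and shRNA libraries repeat the overexpression wording, so those groups rest on the sample titles. A letter of unstated meaning ends each library name of the overexpression table, F for overexpression and S for empty vector, and what it marks cannot be told apart from the group.

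Autophagy wraps cytoplasm in a growing double membrane that finally fuses with the lysosome. The ULK kinase complex starts the process, the class III PI3-kinase complex marks the membrane with the lipid PI3P, WIPI proteins read that mark, and ATG9 and ATG2 proteins supply lipid. A pair of ubiquitin-like conjugation systems then attaches LC3 and GABARAP proteins to the membrane lipid phosphatidylethanolamine, cargo receptors such as p62 bridge these proteins to ubiquitin-tagged cargo, and syntaxin 17 drives fusion. In plasma cells and myeloma, which secrete large amounts of antibody, autophagy is known to limit stress of the endoplasmic reticulum.

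Values are length- and depth-normalised abundances of FPKM type, a unit the file headers do not name. Each fold change compares mean log2(value + 1) in treated against control libraries, is given with its standard error (SE), and understates the change of genes with low values. A member counts as called when limma's Benjamini-Hochberg adjusted p, taken over all genes tested in that table, is under 0.05. RNA abundance was measured, not protein, lipidation or autophagic flux, and in bulk RNA fewer expressing cells and less RNA per cell cannot be told apart. PHF19 itself measured 129 ± 20.3 (SD, n = 3) in scramble and 95.3 ± 17.5 (SD, n = 3) in shRNA libraries (adjusted p = 0.147, or 0.0445 with the replicate number as a block), and 115 ± 4.12 (SD, n = 3) and 220 ± 9.63 (SD, n = 2) in empty vector and overexpression libraries (adjusted p = 0.0438). By library PHF19 was at 112.6, 151.7 and 123.0 in scramble and 75.2, 102.8 and 107.7 in shRNA replicates 1 to 3, lowest in shRNA replicate 1. The summed level of 10 plasma cell markers was 1820 to 2035 in scramble and 1456 to 1860 in shRNA libraries. In the overexpression table, which holds 8 of these markers, it was 852 to 1842 in empty vector and 1694 to 1740 in overexpression libraries. Marker lists of T cells, myeloid cells, stroma, epithelium and red cells summed to at most 14.6 in any library. In shRNA against scramble libraries the sums were lower for 5 myeloid markers (2.37 to 3.29 against 4.64 to 5.97), for 2 epithelial keratins (5.61 to 7.19 against 9.82 to 14.6) and for 3 red cell genes (1.76 to 4.30 against 5.63 to 6.35). Of these lists CD14, CSF1R, ITGAM, ALAS2, CD3E, CD8A and COL1A1 were under 1 in every library of that table, as was the plasma cell marker CD27. LYZ, CD68, HBA1, HBB, KRT8 and KRT18 were not under 1 in every library. In the overexpression table the 2 myeloid markers it holds summed to 0 to 0.0572 in empty vector and 0.396 to 12.3 in overexpression libraries, and its 1 red cell gene, HBB, measured 0 to 0.755 and 3.09 to 12.9. It holds none of CD14, CSF1R, ITGAM, ALAS2 and the T cell markers. The part of these lists in the results below was not tested.

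In the control libraries, scramble and empty vector, the members covered a wide range of levels. In scramble libraries GABARAP, a ubiquitin-like protein of the autophagosome membrane, had the highest abundance at 175 ± 17.8 (SD, n = 3). SQSTM1, which encodes the receptor p62, followed at 152 ± 2.84, then ATG3, the conjugating enzyme that loads LC3, at 96.6 ± 4.19, GABARAPL2 at 77.6 ± 5.40, ATG101 at 52.5 ± 7.38 and MAP1LC3B at 40.1 ± 4.38. Each of these 6 was above the next in every scramble library, whereas each of the 20 genes that follow, from WIPI2 at 28.4 down to ATG2A at 10.3, overlapped the next in rank.

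At the low end stood EPG5 at 2.28, ATG10 at 1.81 and ATG14 at 1.69. ULK2 was listed at 0 in scramble replicate 2 and shRNA replicate 2 and at 0.02 in the other 4 libraries of its table, and ULK1 (6.89, 7.05 and 9.08 in scramble libraries) and ULK3 (13.7, 13.7 and 15.8) were the ULK genes with measurable RNA. The order was much the same in the empty vector libraries, with GABARAP at 178 ± 20.9, SQSTM1 at 118 ± 36.8 and GABARAPL2 at 99.8 ± 5.81 (SD, n = 3 each) at the top. Spearman's rho between control levels in both tables was 0.945 across 31 members with no value of 0, which are not independent replicates.

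After PHF19 knockdown, 3 of 39 members tested were called higher and 0 lower by limma, each in a different step of the pathway. They were WIPI1, CALCOCO2 and ATG16L2. Of all 10900 genes tested in that table, 4.24% were called higher and 1.28% lower. With the replicate number as a block, 6 members were called higher and 0 lower, adding ATG10, ATG4D and BECN1, against 8.20% of all genes higher and 3.68% lower. At an unadjusted p under 0.05 there were 9 members higher and 1 lower, against 15.3% of all genes tested higher and 8.74% lower. The median log2 fold change of the members was 0.04, as against 0.03 over all genes tested, and 21 members lay above 0 and 18 below it. Under quantile normalisation that split was 17 above and 22 below.

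**Figure D1:**
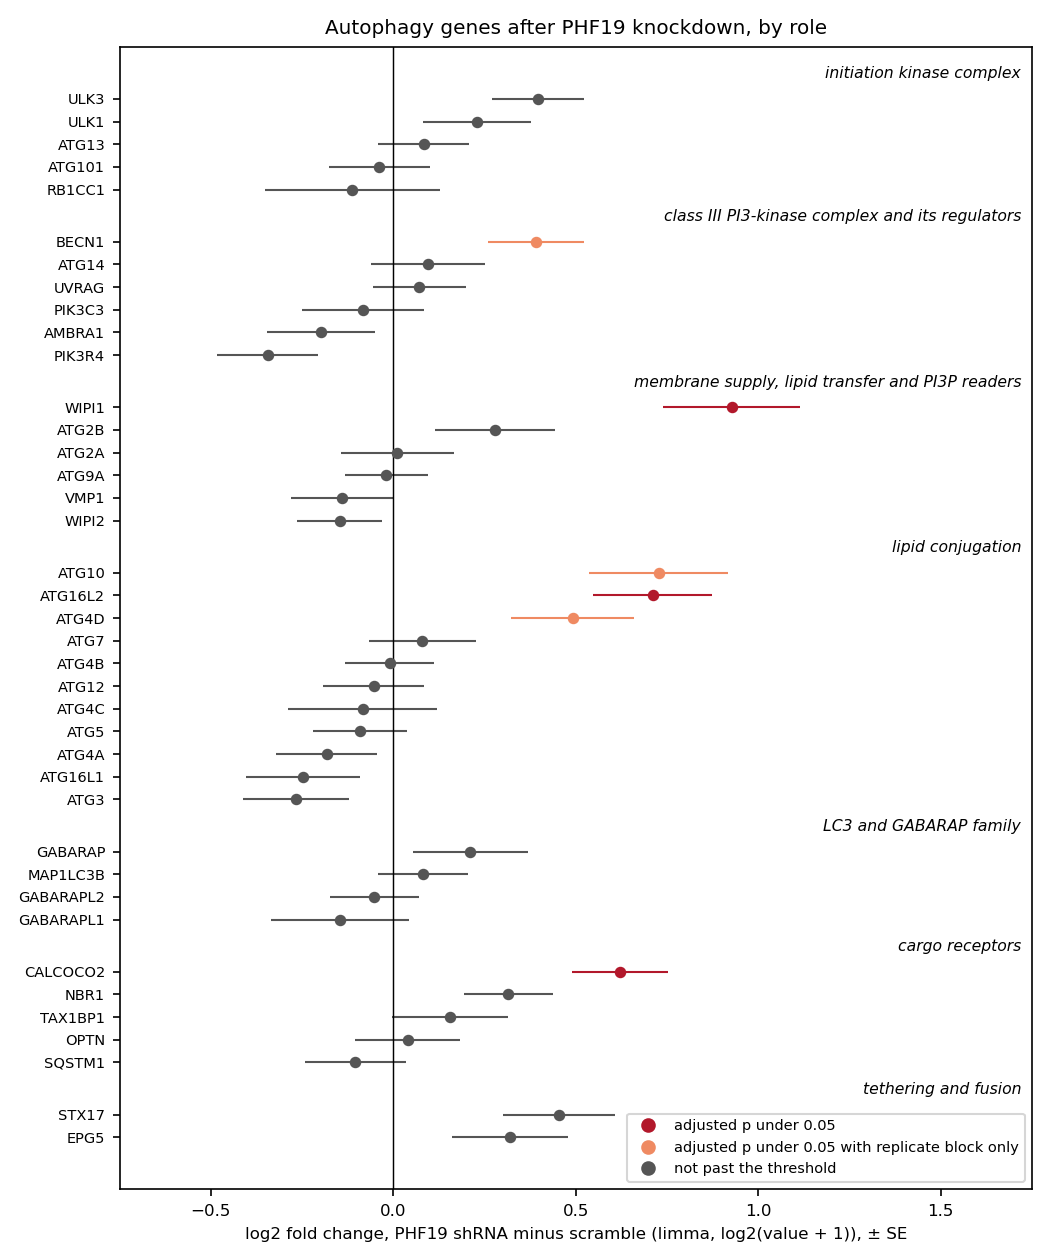
Log2 fold change (PHF19 shRNA minus scramble, horizontal axis) of the 39 members tested, with limma's SE as bars, grouped by role. WIPI1, CALCOCO2 and ATG16L2 (dark red) passed the threshold, ATG10, ATG4D and BECN1 (orange) passed it only with the replicate block, and most others lie within 0.4 of 0.

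WIPI1 encodes a PI3P-binding protein of the early autophagosome membrane. Its abundance was 6.14, 5.00 and 6.17 in scramble replicates 1 to 3 and 15.9, 10.5 and 9.85 in shRNA replicates 1 to 3. Every shRNA library lay above every scramble library, and the highest value was that of shRNA replicate 1. WIPI1 rose by 0.93 (SE 0.19, adjusted p = 0.0258, or 0.00884 with the block). Part of this gene overlaps ARSG, a sulfatase gene on the opposite strand, over 24.3% of its exon bases in GENCODE v29. ARSG was itself called higher, at 0.913 ± 0.273 in scramble and 3.19 ± 1.43 in shRNA libraries (SD, n = 3 each, log2 fold change 1.09, adjusted p = 0.0305). The sources do not say whether the counting used strand, so reads of WIPI1 and ARSG cannot be told apart over the shared bases.

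CALCOCO2 encodes NDP52, a receptor for ubiquitin-coated bacteria and damaged mitochondria. It measured 13.7, 15.3 and 18.1 in scramble and 24.3, 24.5 and 24.9 in shRNA libraries. The 3 shRNA values were nearly equal and all above the scramble values. CALCOCO2 rose by 0.62 (SE 0.13, adjusted p = 0.0295, or 0.0136 with the block).

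ATG16L2 encodes a relative of ATG16L1, the scaffold that directs LC3 conjugation to the membrane. Its values were 3.86, 3.86 and 3.82 in scramble and 8.69, 5.85 and 6.51 in shRNA libraries. The groups did not overlap, and shRNA replicate 1 was again the highest. ATG16L2 rose by 0.71 (SE 0.16, adjusted p = 0.0368, or 0.0199 with the block). FCHSD2, which shares 7.89% of the exon bases of ATG16L2 on the opposite strand, measured 8.99 ± 1.97 and 12.4 ± 1.99 (SD, n = 3 each, adjusted p = 0.182).

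None of the 3 calls held in every set of 5 libraries. Without scramble replicate 1 or 2 no member was called. Of all genes tested, 0.452% and 0.515% were then called higher, against 4.24% with no library left out. That share was 4.54% without shRNA replicate 1, and between 0.515% and 4.24% in the remaining sets. Fewer calls among members thus went with fewer calls over all genes without scramble replicate 1 or 2. CALCOCO2 alone was called without scramble replicate 3, WIPI1 and CALCOCO2 without shRNA replicate 1, WIPI1 alone without shRNA replicate 2, and WIPI1 and ATG10 without shRNA replicate 3. Over these 6 sets the log2 fold changes stayed between 0.73 and 1.05 for WIPI1, 0.53 and 0.72 for CALCOCO2, and 0.57 and 0.82 for ATG16L2. With no filter on low values their adjusted p-values were 0.0554, 0.0554 and 0.0644, and 1.51% of all genes were called higher. In that table shRNA replicate 1 stood apart, correlating at 0.953 to 0.973 with the other libraries (Pearson, log2 values across genes), while shRNA replicates 2 and 3 correlated at 0.993.

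The promoters of these 3 called genes are shown because they are the members that passed the test, 250 bases before to 50 bases after the start in RefSeq (GRCh38.p14), each read 5′ to 3′ on the strand of the gene. WIPI1 lies at chr17:68457447-68457746 on the minus strand, CALCOCO2 at chr17:48830785-48831084 on the plus strand and ATG16L2 at chr11:72814161-72814460 on the plus strand. Capitals mark a match to GTAAACA, a FOXO element.
WIPI1: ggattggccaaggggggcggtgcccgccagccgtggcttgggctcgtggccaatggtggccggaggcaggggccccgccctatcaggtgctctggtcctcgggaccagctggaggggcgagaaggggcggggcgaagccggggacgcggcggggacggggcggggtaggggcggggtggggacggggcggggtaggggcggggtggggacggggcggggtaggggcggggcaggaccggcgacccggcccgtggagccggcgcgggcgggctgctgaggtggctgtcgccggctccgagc
CALCOCO2: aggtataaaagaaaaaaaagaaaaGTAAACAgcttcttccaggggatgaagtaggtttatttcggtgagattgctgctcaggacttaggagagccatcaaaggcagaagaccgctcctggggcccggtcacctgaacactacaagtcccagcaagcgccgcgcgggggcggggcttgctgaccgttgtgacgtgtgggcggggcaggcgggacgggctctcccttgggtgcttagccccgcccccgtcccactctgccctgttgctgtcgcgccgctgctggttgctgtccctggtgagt
ATG16L2: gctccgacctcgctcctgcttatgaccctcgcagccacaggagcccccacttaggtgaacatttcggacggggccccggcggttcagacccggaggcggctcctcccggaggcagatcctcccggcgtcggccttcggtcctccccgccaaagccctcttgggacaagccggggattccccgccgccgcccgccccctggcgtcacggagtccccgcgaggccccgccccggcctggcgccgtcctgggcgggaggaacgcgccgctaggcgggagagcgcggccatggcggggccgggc
The windows contain 79.7%, 59.7% and 75.3% G and C, against a median of 58.7% over all RefSeq promoters and 64.0% over those of the members. Of the 42 members, 36 matched a promoter in that table. On both strands, CACGTG, the core of the element bound by TFEB, was found in the promoters of ATG14, ATG3 and ULK3, which are 8.33% of these members, and in 8.77% of all 27305 genes with a promoter. GTAAACA was found for CALCOCO2 alone, 2.78% of members against 4.19% of all genes. TGATGNAA, a composite element of C/EBP and ATF proteins, was found in 0 of 36 members and 4.46% of all genes. None of these motifs contains another. A match is a description of the letters and no evidence of binding.

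**Figure D2:**
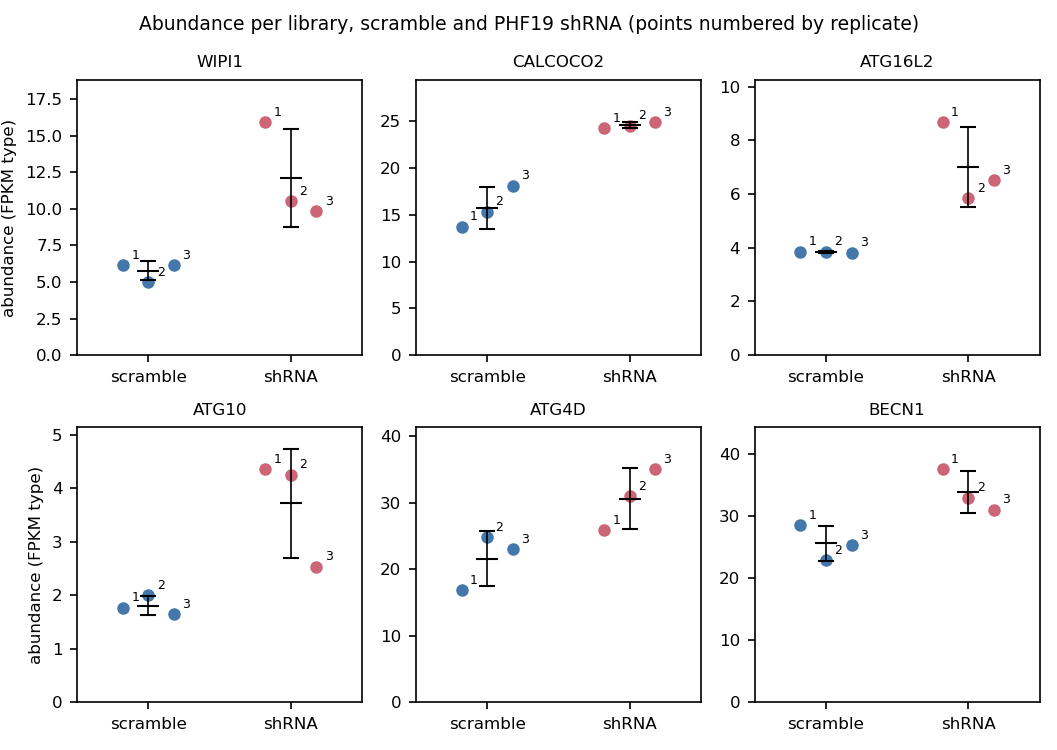
Abundance (FPKM type, vertical axes from 0) per library for the 6 members called with or without the replicate block, points numbered by replicate, black bars mean ± SD (n = 3). In all 6 panels the lowest shRNA point is above the highest scramble point, by little for ATG4D and BECN1.

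The 3 members called only with the block also had groups that did not overlap. ATG10, the conjugating enzyme that joins ATG12 to ATG5, measured 1.77, 2.0 and 1.65 in scramble and 4.36, 4.26 and 2.54 in shRNA libraries (log2 fold change 0.73, SE 0.19, adjusted p = 0.0541, or 0.0258 with the block). Its value in shRNA replicate 3 was far below those of replicates 1 and 2. ATG4D, a protease that trims LC3 and GABARAP proteins, measured 16.9, 24.9 and 23.1 in scramble and 25.9, 31.0 and 35.1 in shRNA libraries (0.49, SE 0.17, adjusted p = 0.114, or 0.0261 with the block). Here replicate 1 was the lowest of both groups. BECN1, which encodes the PI3-kinase scaffold Beclin 1, measured 28.5, 23.0 and 25.3 in scramble and 37.5, 33.0 and 31.0 in shRNA libraries (0.39, SE 0.13, adjusted p = 0.109, or 0.0436 with the block).

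Opposite-strand neighbours overlap these 3 genes as well. ATG10 shares 6.86% of its exon bases with the ribosomal protein gene RPS23 (305 ± 86.7 and 314 ± 86.9, SD, n = 3 each), whose level is far above its own. ATG4D shares 15.0% with KRI1 (36.5 ± 4.89 and 31.4 ± 1.02), and BECN1 shares 4.68% with PSME3 (116 ± 10.8 and 85.6 ± 11.4) and 12.4% with CNTD1 (0.433 ± 0.247 and 0.333 ± 0.151). None of these neighbours had a higher call, and the part of shared reads in the member values was not tested.

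In all, 10 members had every shRNA library above every scramble library, and 2 had every shRNA library below. Over all genes tested these shares were 18.9% and 13.0%. Read within equal replicate numbers, 15 members were higher in shRNA than in scramble in all 3 pairs and 6 were lower in all 3, against 31.2% and 24.2% of all genes tested. Beside the 10 members above, ULK1, ATG2B, ATG7, GABARAP and TAX1BP1 were higher in each pair, and PIK3R4, ATG3, ATG4A, ATG16L1, WIPI2 and VMP1 were lower. The authors' deposited table gave a p-value under 0.05 for 26 of the 41 members, against 61.2% of its genes, so the share of members was close to that background.

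In the initiation complex no member was called. ULK3, a ULK1-related kinase, had the largest difference, with 13.7, 13.7 and 15.8 in scramble and 20.6, 18.4 and 18.7 in shRNA libraries (0.40, SE 0.13, adjusted p = 0.0947). ULK1, the kinase itself, overlapped between groups at 6.89, 7.05 and 9.08 against 8.74, 9.03 and 9.56. RB1CC1, which encodes the scaffold FIP200, was lowest in replicate 1 of both groups, at 7.66, 13.1 and 14.6 against 7.79, 12.4 and 11.8 (-0.11, SE 0.24, adjusted p = 0.807). The adaptors ATG13 and ATG101 had control means of 18.1 and 52.5 and shRNA means of 19.3 and 50.9. The median log2 fold change of the 5 tested was 0.08.

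Among the class III PI3-kinase genes BECN1 and PIK3R4 lay at opposite ends. PIK3R4, the regulatory subunit VPS15, measured 11.6, 13.6 and 14.3 in scramble and 9.32, 10.4 and 10.8 in shRNA libraries (-0.34, SE 0.14, adjusted p = 0.162). The groups did not overlap, and PIK3R4 was the only member lower at an unadjusted p under 0.05, without being called. The catalytic subunit PIK3C3, the alternative partners ATG14 and UVRAG, and AMBRA1, which regulates Beclin 1, overlapped between groups, with shRNA means of 5.12, 1.86, 12.3 and 11.9 against scramble means of 5.47, 1.69, 11.7 and 13.7. The median over the 6 genes was -0.01, and under quantile normalisation 5 of the 6 were below 0.

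Of the membrane supply genes WIPI1 alone was called. WIPI2, the PI3P reader that recruits ATG16L1, measured 26.8, 28.6 and 29.7 in scramble and 24.1, 27.5 and 25.0 in shRNA libraries (-0.15, SE 0.12, adjusted p = 0.475). The scramblase ATG9A, the lipid transfer proteins ATG2A and ATG2B, and the endoplasmic reticulum scramblase VMP1 overlapped between groups. Their scramble means were 24.5, 10.3, 2.54 and 24.9 and their shRNA means 24.2, 10.3, 3.26 and 22.6.

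The 11 lipid conjugation genes split by sign, with 4 above 0 and 7 below, and their median was -0.05. The upper 3 were ATG10, ATG16L2 and ATG4D. At the lower end ATG3 measured 95.6, 101 and 93.0 in scramble and 67.0, 96.5 and 79.3 in shRNA libraries (-0.27, SE 0.14, adjusted p = 0.287), overlapping between groups with shRNA replicate 1 the lowest. ATG16L1 measured 6.32, 7.0 and 6.23 against 4.32, 5.82 and 5.96, which did not overlap and was not called. The activating enzyme ATG7, the conjugate partners ATG5 and ATG12 and the proteases ATG4A, ATG4B and ATG4C overlapped between groups, and none was called.

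The share of related genes within a library does not depend on its scaling. These shares were chosen for display after the values were seen. ATG16L2 made up 37.9%, 35.5% and 38.0% of the summed ATG16L1 and ATG16L2 abundance in scramble and 66.8%, 50.1% and 52.2% in shRNA libraries. WIPI1 made up 18.6%, 14.9% and 17.2% of WIPI1 plus WIPI2 in scramble and 39.8%, 27.7% and 28.3% in shRNA libraries. ATG4D made up 30.2%, 33.9% and 33.4% of the 4 ATG4 genes in scramble and 39.2%, 40.1% and 46.0% in shRNA libraries. ATG2B made up 19.1%, 19.5% and 20.6% of ATG2A plus ATG2B in scramble and 24.8%, 25.1% and 22.5% in shRNA libraries. For each of these 4 genes every shRNA share was above every scramble share. An exact permutation test of each gave p = 0.1, the smallest value possible for 3 against 3. The ULK1 and ULK3 shares of their sum overlapped between groups (exact permutation p = 0.2). GABARAPL2 made up 24.4%, 26.8% and 24.5% of the summed LC3 and GABARAP abundance in scramble and 21.1%, 23.2% and 23.0% in shRNA libraries. Every shRNA share of GABARAPL2 was below every scramble share (exact permutation p = 0.1), and the other shares of that family overlapped. All these shares are computed from the member values given here, so they are no separate support, and no share over all genes stands beside them. The coding sequences of ATG16L1 and ATG16L2 are 54.3% identical and those of WIPI1 and WIPI2 62.5% (GENCODE v29).

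**Figure D3:**
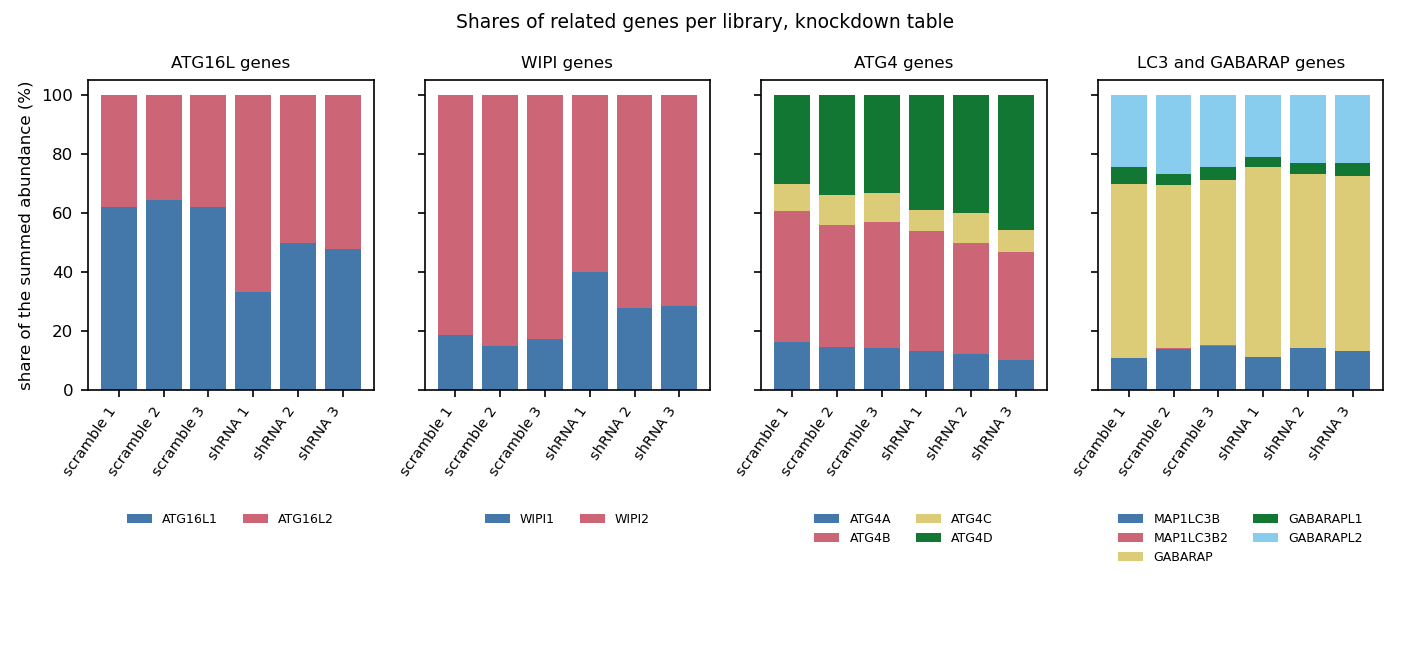
Share (%) of each gene in the summed abundance of its related genes, per library of the knockdown table (scramble 1 to 3, shRNA 1 to 3). The ATG16L2, WIPI1 and ATG4D segments are larger in all 3 shRNA libraries than in any scramble library. The ATG4A, ATG4B and GABARAPL2 segments are smaller in all 3 shRNA libraries than in any scramble library. The MAP1LC3B, MAP1LC3B2, GABARAP and GABARAPL1 shares overlap between the groups.

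No member of the LC3 and GABARAP family was called after knockdown, and the 4 tested had a median log2 fold change of 0.01. MAP1LC3B, the usual autophagosome marker LC3B, measured 35.1, 41.9 and 43.4 in scramble and 43.2, 43.5 and 40.3 in shRNA libraries. GABARAP measured 195, 167 and 163 against 252, 183 and 179 (0.21, SE 0.16, adjusted p = 0.450). Its highest value was that of shRNA replicate 1, and the groups overlapped, though it was higher in each of the 3 equally numbered pairs (adjusted p with the block 0.228). It shares 30.5% of its exon bases with AC120057.2, an annotated gene on the same strand that was not analysed here.

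GABARAPL1 measured 19.0, 11.3 and 13.5 in scramble and 13.6, 10.9 and 14.0 in shRNA libraries (-0.15, SE 0.19, adjusted p = 0.670), with scramble replicate 1 the highest. GABARAPL2 measured 80.9, 80.7 and 71.4 against 82.9, 72.0 and 69.9. Both overlapped between groups. MAP1LC3B2 measured 0.58, 0.35 and 1.12 in scramble and 1.12, 0.62 and 0 in shRNA libraries, under the filter. Its coding sequence is 99.5% identical to that of MAP1LC3B, so the split of reads between them is uncertain.

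The 5 cargo receptors had a median log2 fold change of 0.15, with 4 above 0, and CALCOCO2 was the one member called. NBR1, a receptor for ubiquitin-tagged aggregates and peroxisomes, measured 21.5, 21.6 and 24.7 in scramble and 30.6, 26.8 and 27.6 in shRNA libraries (0.31, SE 0.12, adjusted p = 0.151). Its groups did not overlap and it was not called. SQSTM1 measured 152, 154 and 149 in scramble and 117, 154 and 156 in shRNA libraries (-0.10, SE 0.14, adjusted p = 0.684). Only shRNA replicate 1 lay below the scramble range, and without that library the log2 fold change was 0.03.

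OPTN, optineurin, measured 26.6, 25.7 and 28.8 in scramble and 22.9, 28.8 and 32.3 in shRNA libraries. TAX1BP1 measured 18.8, 26.2 and 27.0 against 23.3, 28.2 and 28.1 (0.15, SE 0.16, adjusted p = 0.589). Both receptors overlapped between groups, and TAX1BP1 was higher in each equally numbered pair (adjusted p with the block 0.349). The difference between CALCOCO2 and the other receptors in their response was not tested.

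Both fusion genes had groups that did not overlap, and neither was called. STX17, the autophagosomal syntaxin, measured 2.73, 3.21 and 3.75 in scramble and 4.93, 4.56 and 4.81 in shRNA libraries (0.45, SE 0.15, adjusted p = 0.109). EPG5, a tether between autophagosome and lysosome, measured 1.83, 2.36 and 2.66 against 3.35, 2.91 and 2.98.

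After PHF19 overexpression, 0 of 38 members tested were called in either direction by limma, also without trend and robust variances. Of all 10279 genes tested, 0.613% were called higher and 0.302% lower. In a fit of only the 8665 genes above 0 in every library, 0 genes were called in either direction. PHF19 was therefore not called in that fit. At an unadjusted p under 0.05 there were 3 members higher, MAP1LC3B, GABARAP and SQSTM1, and 0 lower, where 11.5% of all genes tested passed that mark in either direction (7.88% higher and 3.65% lower). By sign 27 members lay above 0 and 11 below, with a median of 0.22 as against 0.09 over all genes, and the 31 members with no 0 split into 23 above and 8 below with a median of 0.20 (0.07 over all genes with no 0). These values are unscaled, and the summed abundance of all genes was 425155 to 426112 in empty vector and 498485 to 502349 in overexpression libraries. Quantile normalisation moved the median over all genes to -0.04 and that of the members to 0.10, with 23 above 0 and 15 below, and median-of-ratios scaling gave the same 23 and 15.

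Many values of this table are listed at exactly 0, in 19.2% of its genes and in 8 of the 39 members. No fold is given for these members. In empty vector replicates 3, 4 and 5 and then overexpression replicates 1 and 2, NBR1 was listed at 23.5, 25.1, 0, 38.7 and 34.2. VMP1 was listed at 0, 26.3, 0, 25.3 and 25.1, and ATG12, the ubiquitin-like conjugate partner of ATG5, at 13.1, 0, 0, 16.6 and 15.2. Where they are above 0 in several libraries, the values of VMP1 lie close together.

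ATG4D was listed at 10.8, 0, 13.9, 0 and 0, and ATG10 at 3.08, 2.74, 5.55, 0 and 4.13. ULK3 was listed at 12.7, 13.9, 14.5, 15.5 and 0, ATG2A at 0, 7.77, 6.71, 7.87 and 7.64, and MAP1LC3B2 at 0, 0.872, 1.38, 0.716 and 0.551. ATG4D held a 0 in both groups, NBR1, VMP1, ATG12, ATG2A and MAP1LC3B2 only in empty vector and ATG10 and ULK3 only in overexpression libraries. An exact 0 beside such levels can be a failed estimate, so no comparison is drawn for these 8 members.

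Among the 31 tested members with no 0, 11 had both overexpression libraries above all empty vector libraries, and 1, ATG2B, had both below. Over all 8665 such genes the shares were 23.3% and 12.0%. Those above were ATG13, BECN1, ATG4A, ATG4C, ATG7, ATG9A, MAP1LC3B, GABARAP, GABARAPL1, SQSTM1 and TAX1BP1. ATG2B measured 3.71, 3.56 and 4.86 in empty vector and 3.20 and 2.42 in overexpression libraries. Without empty vector replicate 5 the counts were 17 above and 5 below, and 66.0% of all such genes then had groups that did not overlap.

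The 4 tested LC3 and GABARAP genes lay above 0, with a median of 0.43, though GABARAPL2 lay below 0 under quantile normalisation and median-of-ratios scaling. Under quantile normalisation the median was 0.28. MAP1LC3B measured 32.7, 30.8 and 31.9 in empty vector and 41.8 and 42.2 in overexpression libraries, with little spread in either group (0.39, SE 0.09, adjusted p = 0.317, or 0.24 on the log2 scale under quantile normalisation). GABARAP measured 168, 163 and 202 against 247 and 269 (0.54, SE 0.14, adjusted p = 0.325). Both had groups that did not overlap, and neither was called.

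GABARAPL1 measured 16.7, 18.5 and 26.0 against 28.0 and 28.5 (0.47, SE 0.22, adjusted p = 0.504), with empty vector replicate 5 close to the overexpression values. GABARAPL2 measured 103, 103 and 93.1 against 95.0 and 113, which overlapped. The overlap of MAP1LC3B with FBXO31 on the opposite strand covers 2.82% of its exon bases. FBXO31 was listed at 0 in all 3 empty vector libraries and at 6.62 ± 0.310 (SD, n = 2) in overexpression libraries. In scramble libraries FBXO31 measured 8.52 ± 0.464 (SD, n = 3). Limma called FBXO31 higher after overexpression (adjusted p = 0.00585), but an exact 0 can be a failed estimate, so no comparison is drawn for it. The part of shared reads in the MAP1LC3B values was not tested.

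The 4 cargo receptors with no 0 had a median of 0.57, and none of these 4 lay below 0 under quantile normalisation or median-of-ratios scaling. SQSTM1 measured 100.4, 160 and 93.3 in empty vector and 180 and 242 in overexpression libraries (0.86, SE 0.30, adjusted p = 0.418), the groups not overlapping but the spread wide in both. TAX1BP1 measured 23.1, 30.6 and 38.0 against 49.1 and 39.2 (0.54, SE 0.25, adjusted p = 0.512), the nearest libraries differing by little.

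OPTN measured 48.5, 35.6 and 97.9 against 71.4 and 100.9, and CALCOCO2 measured 30.7, 18.3 and 22.9 against 36.2 and 21.5. Both overlapped between groups. SQSTM1 shares 20.7% of its exon bases with MRNIP on the opposite strand, which was not analysed here. Of the 39 members, 5 had a p-value under 0.05 in the authors' deposited table, against 12.9% of its genes. They were SQSTM1 (p = 0.000751), ATG2B (p = 0.0198), TAX1BP1 (p = 0.0241), OPTN (p = 0.0265) and GABARAP (p = 0.0306) in the authors' deposited table, which does not name its test.

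**Figure D4:**
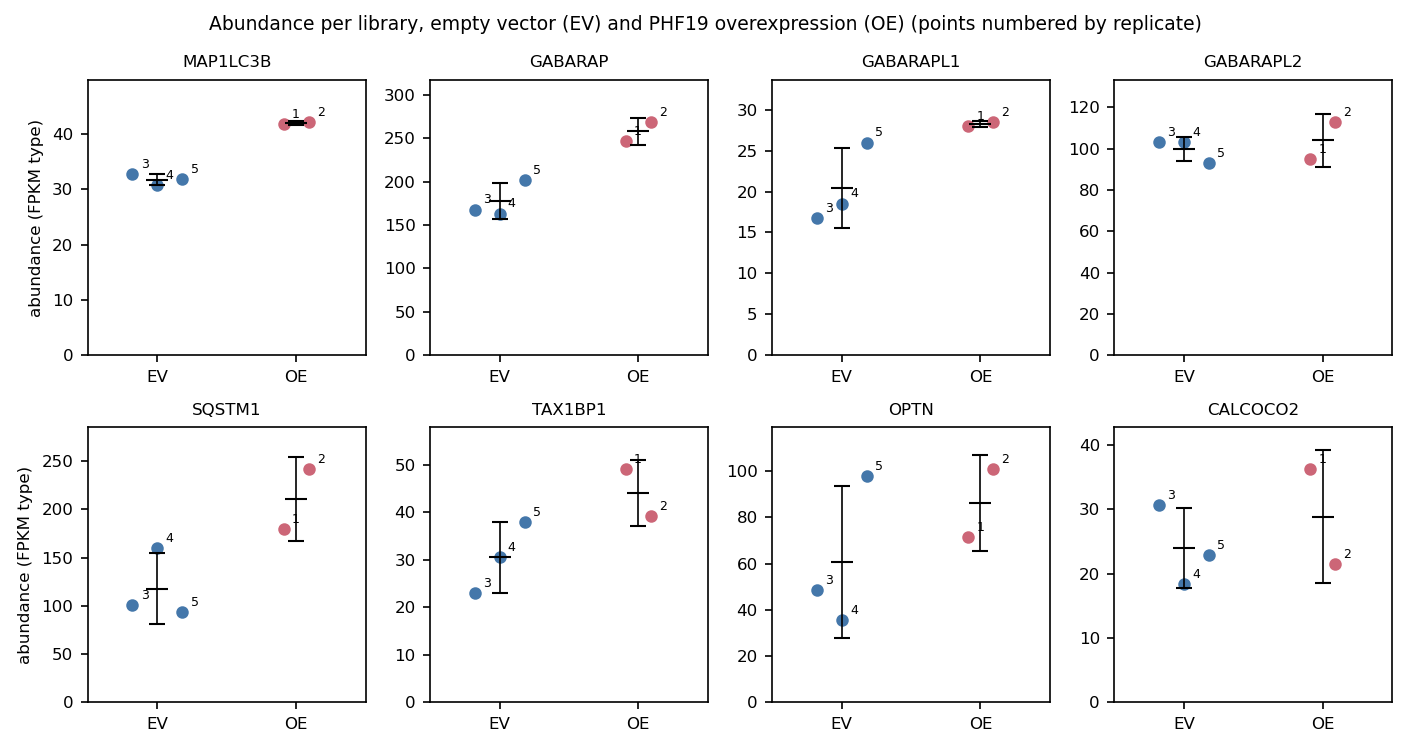
Abundance (FPKM type, vertical axes from 0) per library for 4 LC3 and GABARAP genes and 4 cargo receptors in empty vector (EV, replicates 3 to 5) and PHF19 overexpression (OE, replicates 1 and 2), black bars mean ± SD. The groups do not overlap for MAP1LC3B, GABARAP, GABARAPL1, SQSTM1 and TAX1BP1, and empty vector replicate 5 sets the spread of OPTN and GABARAPL1.

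The other members above the empty vector range belong to initiation, the PI3-kinase complex, membrane supply and conjugation. ATG13 measured 18.8, 21.7 and 16.5 in empty vector and 25.0 and 25.4 in overexpression libraries. ATG7, the activating enzyme of both conjugation systems, measured 2.22, 2.69 and 2.48 against 3.09 and 5.81, so that most of its difference lay in overexpression replicate 2. For ATG9A the values were 16.1, 18.4 and 14.1 against 19.2 and 19.5. In these 4 groups the tested members lay above and below 0 in counts of 2 and 2, 3 and 3, 5 and 1, and 7 and 4, members with a 0 included.

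The members called after knockdown spread widely among the empty vector libraries. WIPI1 measured 7.86, 11.2 and 26.3 in empty vector and 16.2 and 19.8 in overexpression libraries, and ATG16L2 measured 3.15, 7.08 and 13.7 against 8.28 and 7.39. For both, empty vector replicate 5 was the highest of all 5 libraries. BECN1 measured 37.3, 33.3 and 40.5 against 42.2 and 42.4, both overexpression values lying above every empty vector library, and was not called. Its opposite-strand neighbour PSME3 was listed at 0 in all 3 empty vector libraries and at 74.3 ± 0.401 (SD, n = 2) in overexpression libraries. In scramble libraries PSME3 measured 116 ± 10.8 (SD, n = 3). Limma called PSME3 higher after overexpression (adjusted p = 0.000595). An exact 0 beside such levels can be a failed estimate, so no comparison is drawn for PSME3. Its part in the BECN1 values was not tested.

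ATG5, the acceptor of ATG12, measured 63.3, 62.5 and 23.3 in empty vector and 28.7 and 35.9 in overexpression libraries. Empty vector replicate 5 was the lowest of the 5, far from the other 2 of its group. That library was the highest or lowest of its group for 28 of the 38 members tested, or 73.7%, where the share over all genes tested was 81.8%.

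Both tables can be set side by side because they share no control library. Across the 31 members tested in both with no 0 in either, 12 were higher in both, 4 lower in both, 4 higher after knockdown and lower after overexpression, and 11 the reverse (38.7%, 12.9%, 12.9% and 35.5%). Over all 7928 genes with no 0 in either table these shares were 35.3%, 21.2%, 18.7% and 24.9%. Pearson's r between both log2 fold changes was 0.07 and Spearman's rho 0.06, across genes that are not independent replicates, and over the 7928 genes r was 0.19. Of the members called after knockdown, WIPI1, CALCOCO2 and ATG16L2, each overlapped between the groups of the overexpression table.

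**Figure D5:**
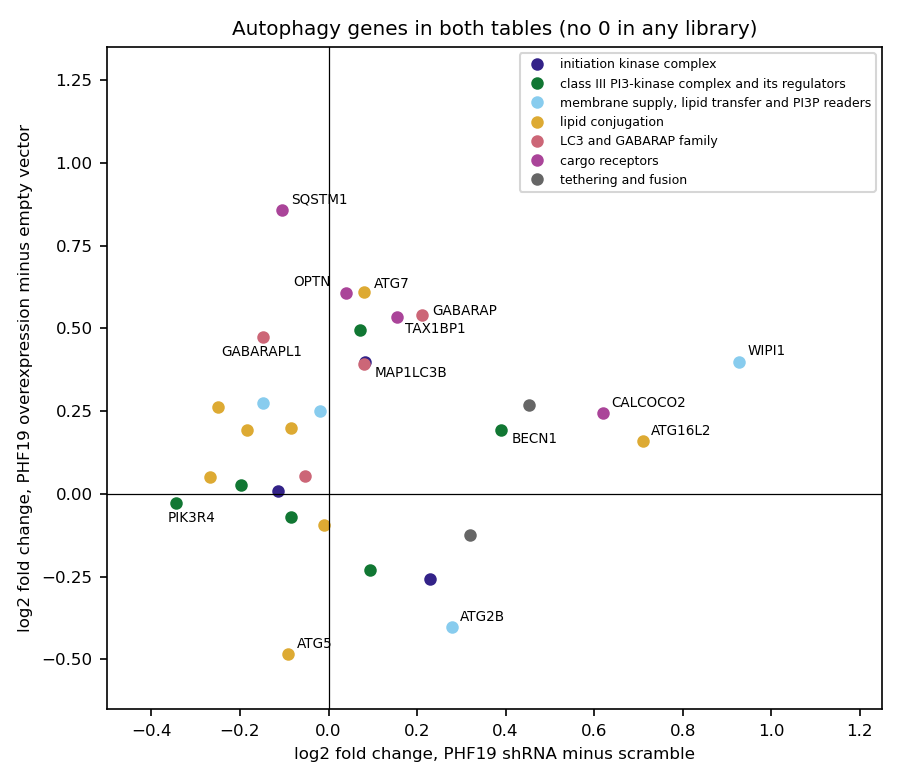
Log2 fold change after knockdown (horizontal axis) against log2 fold change after overexpression (vertical axis) for 31 members with no 0 in either table, coloured by role. WIPI1, ATG16L2 and CALCOCO2 stand out along the horizontal axis and SQSTM1 along the vertical, with no common slope.

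Genes of the pathway were also taken from 7 further lists, of which those of reported ATF4, CHOP and TFEB targets repeat members. Their counts stand against the 4.24% of all genes called higher and 1.28% called lower after knockdown. Among 16 accessory autophagy factors tested after knockdown, 1 was called higher and 0 lower. TECPR1, a tether that binds the ATG12 and ATG5 conjugate, rose from 6.29 ± 1.41 to 11.2 ± 0.993 (SD, n = 3 each, adjusted p = 0.0315). Its relative TECPR2 measured 2.15 ± 0.365 and 3.65 ± 0.622 (adjusted p = 0.0818), and RAB33B, a Rab protein that binds ATG16L1, measured 1.71 ± 0.227 and 2.84 ± 0.512 (adjusted p = 0.104).

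Of 16 organelle-selective receptors and mitophagy kinases tested, 2 were called higher and 0 lower. CCPG1, a receptor for the endoplasmic reticulum, measured 28.6 ± 9.96 in scramble and 98.2 ± 20.1 in shRNA libraries (SD, n = 3 each). This rise of 1.79 (SE 0.26, adjusted p = 0.0129) exceeded that of every one of the 39 members. TOLLIP, a ubiquitin-binding receptor, rose from 14.4 ± 1.74 to 22.0 ± 2.86 (SD, n = 3 each, adjusted p = 0.0492). FKBP8, a mitophagy receptor, was not called at 173 ± 25.5 and 219 ± 8.89 (adjusted p = 0.155).

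None of 14 autophagosome-lysosome fusion genes was called. The smallest adjusted p-values were those of the tethering subunits VPS41 (10.2 ± 1.71 and 15.0 ± 1.86, SD, n = 3 each, adjusted p = 0.0858) and VPS11 (16.4 ± 0.732 and 22.4 ± 3.34, adjusted p = 0.103). At an unadjusted p under 0.05, 3 of the 14 were higher and 0 lower, beside the 15.3% and 8.74% of all genes. Among 11 upstream kinase genes tested 1 was called higher and 0 lower. DEPTOR, an inhibitor of the kinase mTOR, rose from 4.30 ± 1.28 to 8.34 ± 1.39 (SD, n = 3 each, adjusted p = 0.0400).

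Transcription factors of autophagy genes gave 3 higher calls and 0 lower of 12 tested. The stress factors DDIT3 (9.25 ± 1.70 to 26.4 ± 5.85, SD, n = 3 each, adjusted p = 0.00675), CEBPB (23.2 ± 4.88 to 60.0 ± 13.8, adjusted p = 0.0113) and ATF4 (304 ± 25.2 to 514 ± 47.5, adjusted p = 0.0178) rose. TFEB, which drives lysosome and autophagy genes, measured 18.1 ± 0.987 and 25.5 ± 3.84 (adjusted p = 0.0826, or 0.0465 with the block).

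Of 12 autophagy genes reported as targets of ATF4 or its partner CHOP (the product of DDIT3), which are all members, 0 were called in either direction, 2 were called higher with the block (ATG10 and BECN1), and 3 were higher at an unadjusted p under 0.05. Their median log2 fold change was 0.01. Over all genes tested after knockdown, 8.20% were called higher with the block and 15.3% were higher at that unadjusted mark. Of 6 reported TFEB targets tested, WIPI1 alone was called, and the median was 0.08. MAP1LC3B and SQSTM1, which stand on both lists, were not called.

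After overexpression limma called 0 members of any of the 7 lists in either direction. At an unadjusted p under 0.05 each list, of 6 to 14 genes tested, held 1 to 4 higher and 0 lower, beside the 7.88% and 3.65% of all genes. TOLLIP had the smallest p of them, at 9.47 ± 0.738 in empty vector (SD, n = 3) and 14.4 ± 0.293 in overexpression libraries (SD, n = 2, adjusted p = 0.306), and TFEB measured 13.7 ± 2.01 and 21.1 ± 0.938 (adjusted p = 0.340). Of the stress factors called after knockdown, CEBPB measured 9.74 ± 3.31 and 20.4 ± 0.704 (adjusted p = 0.384). ATF4 measured 339 ± 65.2 and 344 ± 21.0 (adjusted p = 0.952), and DDIT3 was not tested. The genes under that unadjusted mark were MAP1LC3B, GABARAP and SQSTM1 on the ATF4 or CHOP list. On the TFEB target list they were MAP1LC3B and SQSTM1. These are members already counted above.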

How the data were processed

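Total RNA of 11 ARP1 libraries was sequenced, and reads were aligned with TopHat to hg19 per the submitters' processing notes, with no version given. Not given in the sources used here are the quantifier, the annotation, the gene filter and the authors' test. The authors deposited 2 separately normalised tables of abundances recorded here as FPKM, since their headers name no unit, each with 1 p-value per gene per the file headers. No counts are given, so depth is unknown and counting error could not be computed. The summed abundances were 470294 to 526068 per library in the knockdown table and, in the overexpression table, 425155 to 426112 in empty vector and 498485 to 502349 in overexpression libraries. Of the knockdown symbols 24 had become dates and were left unmatched.

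Abundances entered as log2(value + 1), unscaled. A gene was tested within its own table if it reached 1 in 3 or more knockdown libraries or in 2 or more overexpression libraries. Testing used limma 3.58.1 in R 4.3.3 with a variance trend and robust variances, two-sided, with p-values adjusted by Benjamini-Hochberg across the genes tested and called under 0.05. The fit was tested on simulated data. Levels are means ± SD. Other steps ran in Python 3.11.15 (scipy 1.17.1, pandas 2.3.3, numpy 2.4.6, matplotlib 3.10.9). Promoters came from RefSeq (GRCh38.p14), and overlaps and coding identity from GENCODE v29, not the authors' build.

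Both knockdown groups are numbered 1 to 3. Across genes, deviations of equally numbered libraries from their group means had correlations of 0.341, 0.270 and 0.273, and other pairs -0.277 to 0.0936. By this check the numbers may pair the libraries, with no label stating it, so they were used as a block in an alternative fit. The reported fit has no block, and the blocked value is given for the called members and wherever it changes a call.

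The members, roles and further lists were chosen with earlier results of these data known. Named with every library's value are members called with or without the block, the largest difference in each direction of each role group after knockdown, the LC3 and GABARAP genes, the receptors and members listed at 0. Of each further list up to 3 genes with the smallest adjusted p are given as mean ± SD, and TFEB is added because the block calls it. Others given with all values, and the overlapping neighbours, were chosen after values were seen. Alternatives were quantile normalisation or median-of-ratios scaling, a filter at 5 or none, pseudocounts of 0.5 and 0.1, plain limma with neither trend nor robust variances, library weights, MAP1LC3B and MAP1LC3B2 summed, only genes above 0 in every overexpression library, each library left out, and the block.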

Additional observations from a re-analysis of the deposited data

How the results depend on the processing

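After knockdown the count of members called higher was 3. It was 0 with no filter on low values, 11 with library weights, 6 with the replicate block, and 0 to 2 with 1 library left out. The share of all genes called higher was 4.24% in the reported fit. It was 1.51% with no filter, 8.20% with the block, and 0.452% to 4.54% with 1 library left out. Library weights called 18.4% of all genes tested higher and 10.6% lower after knockdown, and 12.0% higher after overexpression. Among members they added ULK1, ULK3, BECN1, ATG2B, ATG4D, ATG10, NBR1 and STX17. Quantile normalisation left 2, ATG16L2 having an adjusted p of 0.0772, and called 3.46% of all genes tested higher. The count called lower was 0, or 2 with library weights (PIK3R4 and ATG4A), and 0 with each library left out. The replicate block changed no other member's call than the 3 it added. After overexpression the count called higher was 0, or 3 with library weights (MAP1LC3B, GABARAP and GABARAPL1). It was 0 to 1 with 1 empty vector library left out (ATG12 without empty vector replicate 3, VMP1 without empty vector replicate 4). The count called lower was 0, or 0 to 1 with 1 empty vector library left out (ATG4D without empty vector replicate 4). ATG12, VMP1 and ATG4D hold values of 0. Leaving out 1 overexpression library leaves 1 library in that group, so no calls are given for those fits. Over all genes tested, 0.742% and 0.891% were called higher without empty vector replicates 3 and 4, and 0.297% lower without replicate 4. No paired analysis was possible for overexpression because its groups share no replicate number. Members that were not called changed sign in places. Under quantile normalisation ATG14, UVRAG, ATG2A and ATG7 moved below 0 after knockdown (ATG2A also under median-of-ratios scaling), and under both scalings RB1CC1, AMBRA1, ATG3 and GABARAPL2 did so after overexpression. GABARAPL1 measured 0.0922 with library weights. With 1 library left out the log2 fold changes ran from -0.37 to 0.08 for RB1CC1, from -0.18 to 0.03 for SQSTM1, from -0.30 to 0.05 for GABARAPL1 and from -0.01 to 0.24 for TAX1BP1, with single values of 0.0510 (RB1CC1 without scramble replicate 3), 0.0783 (RB1CC1 without shRNA replicate 1), 0.0313 (SQSTM1 without shRNA replicate 1), 0.0489 (GABARAPL1 without scramble replicate 1) and -0.00563 (TAX1BP1 without scramble replicate 1). The cause of these changes was not tested. Depth is unknown and groups hold 2 or 3 libraries, and a missed threshold does not show that levels were equal.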
